A study of Mus musculus with 8 samples.

Results

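Interferon-response genes are the genes that a cell turns on when an interferon binds its surface receptor. Of the 22552 genes in the mRNA table, 62 belonged to this group by name. They were chosen by the family names Ifit, Ifitm, Gbp, Irgm and Oas, by the Irf and Stat factors of the pathway, and by a list of 18 further symbols. Of those 18 symbols, only Ifi27 had no entry under that name. A mean of at least 1 FPKM over both genotypes was reached by 41 of the 62 genes, here called measured genes. FPKM, fragments scaled by transcript length and by the mapped fragments of a library, is a level per transcript length.

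The tissue was brown adipose tissue, the fat that produces heat, from Null mice and WT mice aged 2 months on a mixed background of 129SV, FVB/N and C57BL/6. Null mice were mmu-mir-193b -/- and lack the microRNAs miR-193b and miR-365-1, whereas WT mice were mmu-mir-193b +/+. The allele came from floxed mice bred with MMTV-Cre females, and the Cre transgene was then bred out. Poly(A) RNA of 3 Null and 3 WT samples was sequenced, but the authors deposited 1 combined FPKM column per genotype, so no value below has a replicate check and no difference was tested. The labels give neither the sex of the mice nor the number of animals per sample.

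Interferons fall into types that use different receptors. Type I interferons signal through a complex with Stat2 and Irf9 to a DNA element called the ISRE and switch on antiviral effectors such as Ifit1, Mx1 and Isg15. Interferon gamma, made mainly by T cells and NK cells, signals to the GAS element and by way of Irf1. It strongly induces large GTPases, the guanylate-binding proteins (Gbp) and the immunity-related GTPases (Irgm1, Irgm2, Igtp, Iigp1, Tgtp1). Some of these GTPases attack the vacuoles of intracellular microbes, and others regulate those that do. The sets overlap, because many of these genes respond to both types. Brown fat holds macrophages, lymphocytes and endothelial cells beside its adipocytes, and all of these can respond to interferon.

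The mature products of the deleted locus are shown because they define the genotype. Capitals mark the seed, bases 2 to 8, which pairs with target mRNAs. Sequences and positions are from RefSeq, build GRCm38.p6.
miR-193b-3p, chr16:13449570-13449591, plus strand: aACUGGCCcacaaagucccgcu
miR-365-3p, as made from mir-365-1, chr16:13453895-13453916, plus strand: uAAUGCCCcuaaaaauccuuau
In the microRNA table, which holds 1 library per genotype, miR-193b-3p was at 11.5 RPM in Null and 3705 RPM in WT. RPM is reads scaled to a library total. The strand made by mir-365-1 and no other gene, miR-365-1-5p, was at 0.0821 RPM in Null and 11.8 RPM in WT. Null tissue was thus far below WT tissue for both, whereas miR-365-3p, which mir-365-2 also makes, was at 798 RPM in Null and 1442 RPM in WT.

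Promoter sequences of 43 of the 62 genes were matched by symbol in RefSeq, each covering 250 bases before the transcription start and 50 bases from it. Of these, 4 GTPase promoters and 2 promoters of type I effectors are shown, because these sets differ in their values below. Capitals mark matches to the ISRE pattern TTTCNNTTTC, read on both strands, and to the GAS pattern TTCNNNGAA, which reads the same on both strands.
Gbp2, chr3:142620413-142620712, plus strand: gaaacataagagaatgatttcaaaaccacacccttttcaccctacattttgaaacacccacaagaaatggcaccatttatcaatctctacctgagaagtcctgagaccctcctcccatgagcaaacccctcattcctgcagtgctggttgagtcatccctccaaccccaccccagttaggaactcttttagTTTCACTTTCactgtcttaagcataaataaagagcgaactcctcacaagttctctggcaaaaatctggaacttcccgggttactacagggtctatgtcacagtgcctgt
Gbp7, chr3:142530086-142530385, plus strand: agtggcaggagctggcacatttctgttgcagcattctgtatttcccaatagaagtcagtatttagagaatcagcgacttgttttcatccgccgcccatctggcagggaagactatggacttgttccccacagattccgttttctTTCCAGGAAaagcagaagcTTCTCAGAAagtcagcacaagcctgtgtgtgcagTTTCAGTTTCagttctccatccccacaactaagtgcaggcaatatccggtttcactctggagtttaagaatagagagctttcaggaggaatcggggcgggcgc
Igtp, chr11:58199306-58199605, plus strand: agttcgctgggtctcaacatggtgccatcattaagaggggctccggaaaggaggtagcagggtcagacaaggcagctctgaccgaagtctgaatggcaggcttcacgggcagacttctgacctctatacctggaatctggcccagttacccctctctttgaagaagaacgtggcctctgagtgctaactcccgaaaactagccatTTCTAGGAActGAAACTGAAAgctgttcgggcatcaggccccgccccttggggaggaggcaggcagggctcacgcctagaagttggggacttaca
Irgm2, chr11:58214727-58215026, plus strand: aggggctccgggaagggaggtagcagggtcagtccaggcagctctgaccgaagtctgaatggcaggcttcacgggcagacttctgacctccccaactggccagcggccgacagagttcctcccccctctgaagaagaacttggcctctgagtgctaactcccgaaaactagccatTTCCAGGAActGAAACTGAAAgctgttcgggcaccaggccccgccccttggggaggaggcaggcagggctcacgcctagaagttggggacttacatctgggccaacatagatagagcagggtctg
Isg15, chr4:156200769-156201068, minus strand: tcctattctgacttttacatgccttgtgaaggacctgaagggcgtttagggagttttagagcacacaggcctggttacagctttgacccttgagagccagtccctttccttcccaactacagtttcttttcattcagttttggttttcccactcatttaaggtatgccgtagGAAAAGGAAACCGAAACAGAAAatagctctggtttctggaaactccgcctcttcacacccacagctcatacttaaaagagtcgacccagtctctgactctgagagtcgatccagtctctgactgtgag
Ifit1, chr19:34640639-34640938, plus strand: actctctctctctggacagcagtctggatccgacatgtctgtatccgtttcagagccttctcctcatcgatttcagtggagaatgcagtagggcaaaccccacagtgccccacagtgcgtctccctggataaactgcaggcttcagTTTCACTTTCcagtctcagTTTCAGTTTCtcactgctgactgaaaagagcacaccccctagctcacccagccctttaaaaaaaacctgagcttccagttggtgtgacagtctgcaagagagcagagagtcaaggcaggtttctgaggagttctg
The ISRE pattern was present in 8 of the 8 GTPase genes with a promoter entry and in 11 of the 24 type I effectors, against 3.99% of all 27025 genes with an entry. The 8 GTPase genes were Gbp2, Gbp3, Gbp5, Gbp7, Igtp, Irgm1, Irgm2 and Tgtp1. Iigp1 and Gbp4, which had the largest ratios below, were without an entry, as were the other Gbp genes of chromosome 5. The GAS pattern was present in 5 of the 8 GTPase genes and in 7 of the 24 type I effectors, against 9.55% of all genes. Both sensors with an entry and 2 of 9 transcription factors held the ISRE pattern. In Igtp, Irgm2 and Tgtp1 the ISRE match began 11 bases after the start of the GAS match, and Igtp and Irgm2 had the same base at 96 of 100 positions from 50 bases before the GAS match onwards. Matches can overlap one another: the 3 ISRE matches of Isg15 run into each other, and in Bst2 and Ifitm3 GAS and ISRE matches share bases. A match is a run of letters and not a measured binding site.

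The GTPases were the role in which every measured gene was higher in Null tissue. All 11 had a log2 ratio of Null to WT above 0, where 50.6% of the 11597 measured genes of the table did. Ratios are log2((Null + 1)/(WT + 1)) of FPKM, a scale that understates the difference of low genes. The GTPase ratios ran from 0.22 to 1.27 with a median of 0.59, against a median of 0.01 over all genes. By 1.5-fold or more, 6 of the 11 were higher in Null and 0 were lower, beside 7.87% of all genes higher and 6.75% lower. By 2-fold or more, 2 of the 11 were higher, beside 2.17% of all genes.

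**Figure D1:**
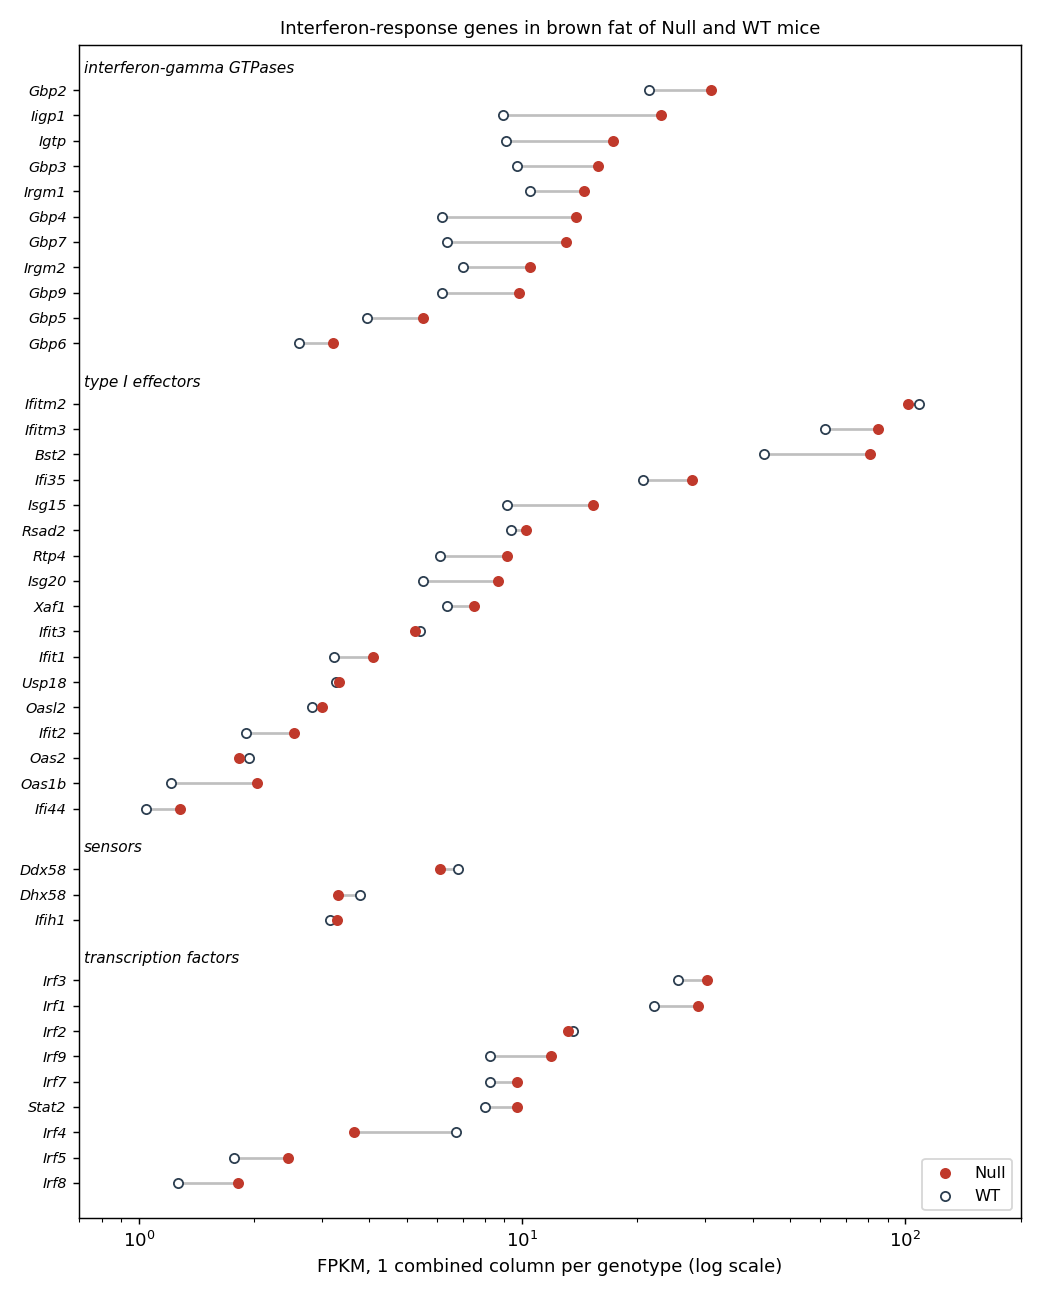
FPKM of measured interferon-response genes on a log scale, 1 row per gene, with the Null column as filled red points and the WT column as open points. In the 11 GTPase rows the Null point lies to the right of the WT point, by most for Iigp1 (23.0 and 8.94 FPKM), whereas the points of Usp18 and Ifit3 nearly coincide.

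Among the immunity-related GTPases, Iigp1, which coats the vacuoles of intracellular parasites, had the largest ratio of all 62 genes. It was at 23.0 FPKM in Null and 8.94 FPKM in WT, a log2 ratio of 1.27. Igtp, also called Irgm3, was at 17.3 FPKM in Null and 9.09 FPKM in WT (0.86). Irgm1 and Irgm2, which with Igtp regulate the other family members, differed less. The level of Irgm1 was 14.5 FPKM in Null and 10.5 FPKM in WT (0.44), and that of Irgm2 was 10.5 FPKM in Null and 7.03 FPKM in WT (0.52). The promoters of Igtp and Irgm2 shown above are alike around the motif pair, and the ratios of these neighbours on chromosome 11 were 0.86 and 0.52.

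The guanylate-binding proteins, which break open microbial vacuoles and promote inflammasome activation, were higher in both of their gene clusters. On chromosome 3 the 4 measured genes had a median log2 ratio of 0.58, from 0.39 for Gbp5 to 0.93 for Gbp7. Gbp2, the most abundant of the GTPases, was at 31.2 FPKM in Null and 21.4 FPKM in WT (0.52). Gbp7 was at 13.0 FPKM in Null and 6.38 FPKM in WT, and Gbp3 at 15.8 FPKM in Null and 9.73 FPKM in WT (0.64). Gbp5, an activator of the Nlrp3 inflammasome, was at 5.50 FPKM in Null and 3.95 FPKM in WT. On chromosome 5 the 3 measured genes had a median of 0.59 and the wider range, from 0.22 to 1.04. There Gbp4 was at 13.8 FPKM in Null and 6.18 FPKM in WT (1.04), Gbp9 at 9.81 FPKM in Null and 6.18 FPKM in WT (0.59), and Gbp6 at 3.21 FPKM in Null and 2.61 FPKM in WT (0.22). Gbp4 and Gbp9 were thus at the same WT level and differed in the Null column.

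The 5 GTPase genes below the mean of 1 FPKM were Tgtp1, Gbp11, Gbp8, Gbp10 and Gbp1, at 0.130 to 1.07 FPKM in Null and 0.0247 to 0.584 FPKM in WT. Each of them was higher in Null, with Tgtp1 at 1.07 FPKM in Null and 0.584 FPKM in WT. How many of all genes at such levels were higher in Null was not computed, so this count has no share beside it. At such levels few fragments stand behind a value. Gbp genes, and Tgtp1 and its near-identical copy, share sequence, so fragments could have been divided among them in ways the sources do not describe. Over the 11 measured GTPases the summed level was 158 FPKM in Null and 92.0 FPKM in WT.

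The type I effectors were nearer to the bulk of genes, with a median log2 ratio of 0.27 over 17 measured genes. Of these, 14 had a ratio above 0 and 3 below it, where 50.6% of all measured genes were above 0. By 1.5-fold or more, 2 of the 17 were higher, a share of 11.8% beside 7.87% of all genes. The GTPase median was 0.32 higher than that of the type I effectors. The ranges overlapped: 10 of the 11 GTPases lay above the type I median, 2 of the 17 type I effectors lay above the GTPase median, and 8 of the 17 lay below the lowest GTPase.

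**Figure D2:**
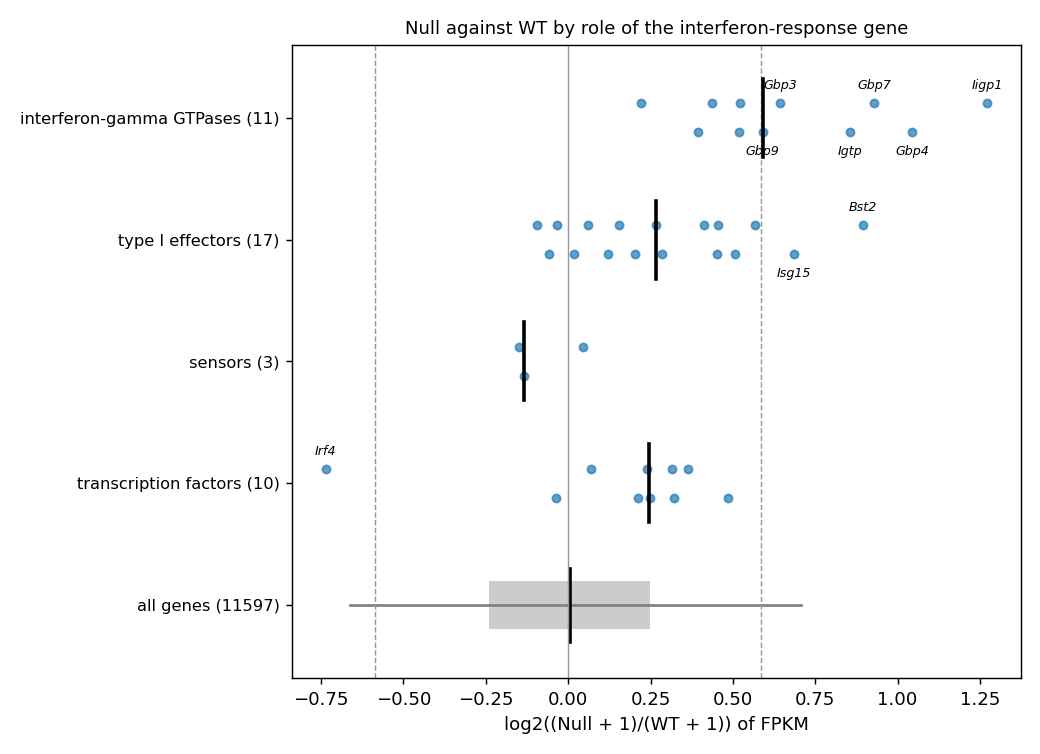
Log2 ratio of Null to WT for each measured interferon-response gene (points), grouped by role, with a black bar at the median of the role and the number of genes in brackets. The lowest row shows all 11597 measured genes as a line from the 5th to the 95th percentile (-0.66 to 0.71) and a box over the middle 50%, dashed lines mark 1.5-fold, and the GTPase row lies furthest to the right.

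The effectors that act on ubiquitin-like tagging and at the cell surface held the 2 highest ratios. Bst2, or tetherin, which holds budding virus at the cell surface, was at 80.7 FPKM in Null and 42.9 FPKM in WT (0.90). Isg15, the ubiquitin-like modifier that is joined to proteins in interferon-treated cells, was at 15.3 FPKM in Null and 9.14 FPKM in WT (0.69). Usp18, the protease that removes Isg15 and restrains the type I receptor, was at 3.33 FPKM in Null and 3.27 FPKM in WT (0.02). The modifier and its protease thus did not differ by the same factor.

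The interferon-induced membrane proteins, which block viral entry, were the most abundant members. Ifitm2 was at 102 FPKM in Null and 109 FPKM in WT (-0.10), the highest level in the group in both columns. Ifitm3 was at 84.7 FPKM in Null and 61.7 FPKM in WT (0.45). These neighbours on chromosome 7 thus had ratios of opposite sign, and Ifitm1, Ifitm5, Ifitm6 and Ifitm7 were below the mean of 1 FPKM.

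Ifit proteins, which bind foreign RNA, were low. Ifit1 was at 4.09 FPKM in Null and 3.23 FPKM in WT (0.27), Ifit2 at 2.53 FPKM in Null and 1.90 FPKM in WT (0.29), and Ifit3 at 5.27 FPKM in Null and 5.42 FPKM in WT (-0.03). The Ifit1 promoter shown above holds 2 ISRE matches, and the level of Ifit1 differed less between the columns than that of any measured GTPase other than Gbp6. Rsad2, or viperin, which makes a chain-terminating nucleotide, was at 10.3 FPKM in Null and 9.35 FPKM in WT (0.12).

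The Oas enzymes, which make a second messenger that activates RNase L, were low as well. Oasl2 was at 3.0 FPKM in Null and 2.84 FPKM in WT (0.06), Oas2 at 1.82 FPKM in Null and 1.94 FPKM in WT (-0.06), and Oas1b at 2.04 FPKM in Null and 1.22 FPKM in WT (0.46). Oas1a, Oas1c, Oas1f, Oas1g, Oas1h, Oas3 and Oasl1 were under the mean of 1 FPKM. Oas1d and Oas1e were listed at 0 in both columns. Oas1 genes are close copies of one another, and their values are uncertain for that reason.

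The classical antiviral GTPases of type I interferon, Mx1 and Mx2, did not reach the mean of 1 FPKM. Mx1 was at 0.572 FPKM in Null and 0.702 FPKM in WT, and Mx2 at 0.876 FPKM in Null and 0.822 FPKM in WT. In all, 15 type I effectors were under that mean, at 0 to 0.876 FPKM in Null and 0 to 0.877 FPKM in WT. Ifitm7 and Oas1h were listed at 0 in WT and above 0 in Null.

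The remaining effectors were spread between these values. Isg20, an RNA exonuclease, was at 8.65 FPKM in Null and 5.51 FPKM in WT (0.57), and Rtp4, a chaperone of receptors that also restrains viral replication, at 9.12 FPKM in Null and 6.13 FPKM in WT (0.51). Ifi35 was at 27.8 FPKM in Null and 20.6 FPKM in WT (0.41). Xaf1, which promotes cell death, was at 7.50 FPKM in Null and 6.38 FPKM in WT (0.20), and Ifi44 at 1.28 FPKM in Null and 1.05 FPKM in WT (0.15). RefSeq gives Ifi27l1 as an older symbol of Ifi27, and Ifi27l1 was in the table at 1400 FPKM in Null and 1124 FPKM in WT (0.32). It was not counted among the 62 genes.

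Sensors of viral RNA in the cytosol were not higher in Null tissue as a role, with a median log2 ratio of -0.13 over all 3 genes. Ddx58, or RIG-I, was at 6.11 FPKM in Null and 6.81 FPKM in WT (-0.13). Dhx58, or LGP2, was at 3.30 FPKM in Null and 3.77 FPKM in WT (-0.15), and Ifih1, or MDA5, at 3.29 FPKM in Null and 3.16 FPKM in WT (0.04). These sensors are themselves induced by interferon, and all 3 ratios lay within the middle 50% of all genes, which ran from -0.24 to 0.25.

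Of the transcription factors, 10 of 11 were measured, with a median log2 ratio of 0.24. A ratio above 0 was found for 8 of the 10, beside 50.6% of all measured genes. The type I complex was represented by Stat2, at 9.71 FPKM in Null and 8.02 FPKM in WT (0.25), and Irf9, at 11.9 FPKM in Null and 8.25 FPKM in WT (0.48). Neither was past 1.5-fold.

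Irf1, the factor through which interferon gamma reaches many of its later targets, was at 28.7 FPKM in Null and 22.1 FPKM in WT (0.36). Irf2, which often opposes Irf1 on the same sites, was at 13.2 FPKM in Null and 13.6 FPKM in WT (-0.04). Irf3 and Irf7, which switch on the interferon genes themselves, were at 30.3 and 9.73 FPKM in Null and at 25.5 and 8.26 FPKM in WT (0.24 and 0.21). The myeloid factors Irf5, at 2.46 FPKM in Null and 1.77 FPKM in WT (0.32), and Irf8, at 1.82 FPKM in Null and 1.26 FPKM in WT (0.31), were low.

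Irf4 was the exception among the factors and the single measured member of the 41 that was lower in Null by 1.5-fold or more. It was at 3.65 FPKM in Null and 6.74 FPKM in WT, a log2 ratio of -0.74. Irf4 is needed by lymphocytes, and in mouse brown fat it is also known as a factor induced by cold and cAMP that works with Ppargc1a on thermogenic genes such as Ucp1. Ppargc1a was at 13.2 FPKM in Null and 15.5 FPKM in WT (-0.21), and Ucp1 at 2487 FPKM in Null and 3016 FPKM in WT (-0.28). Neither was past 1.5-fold, and a link of these values to Irf4 was not tested.

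Over all 41 measured genes, 8 were higher by 1.5-fold or more (Iigp1, Gbp4, Gbp7, Igtp, Gbp3, Gbp9, Bst2 and Isg15), 19.5% of them beside 7.87% of all genes, and 1 was lower, Irf4, beside 6.75%. At 2-fold or more, 2 were higher (Iigp1 and Gbp4) and 0 lower, beside 2.17% and 1.65% of all genes. The members were chosen with earlier results of these data known, so these shares are not independent of that choice. Without the GTPases, 2 of 30 measured genes, or 6.67%, were higher by 1.5-fold or more, a share near that of all genes. Of these 30, 23 had a ratio above 0, beside 50.6% of all genes, and their median was 0.23, beside 0.01. The deposited table opens with 727 genes in falling order of the ratio of Null to WT, 331 higher and 396 lower in Null, and the rest follow mostly by name. How they were picked is not given in the sources used here. Of the 62 interferon-response genes, 5 stood in that block (Iigp1, Gbp4, Gbp7, Igtp and Bst2), beside 727 of all 22552 genes. Its higher genes had FPKM ratios of Null to WT of at least 1.64, and its lower genes of at most 0.614. Standing in the block is therefore not independent of the ratios given above.

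Markers of immune cells were mostly higher in Null tissue too. Of 37 leukocyte markers in the table, 33 were higher in Null. Most of the 37 were under the mean of 1 FPKM, and the share of all genes higher in Null was not computed at such levels. The counts of low markers here and below therefore have no such share beside them. Of these 37, 15 were measured, and 12 of the 15 had a ratio above 0, beside 50.6% of all measured genes. By 1.5-fold or more, 9 of the 15 were higher, beside 7.87% of all genes, and 0 were lower, beside 6.75%. The summed level of the 10 macrophage markers was 164 FPKM in Null and 109 FPKM in WT, with 8 of the 10 higher. Csf1r, at 5.16 FPKM in Null and 5.18 FPKM in WT, and Cd163, at 2.17 FPKM in Null and 2.51 FPKM in WT, were not. Markers of the cells that make interferon gamma were near the floor but higher in Null. All 7 T cell markers in the table were higher, with a sum of 3.40 FPKM in Null and 1.10 FPKM in WT, as were all 6 NK cell markers, with a sum of 3.41 FPKM in Null and 1.00 FPKM in WT. The single gene of these lists past 1 FPKM on average was Gzma, a cytotoxic granule protease, at 1.84 FPKM in Null and 0.514 FPKM in WT.

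B cell markers summed to 3.68 FPKM in Null and 0.953 FPKM in WT over 4 genes, all of them higher. Neutrophil markers summed to 18.0 FPKM in Null and 3.83 FPKM in WT over 4 genes, also all higher. Dendritic cell markers summed to 7.50 FPKM in Null and 8.57 FPKM in WT, with 4 of 6 higher, most of the sum being Zbtb46 (6.29 FPKM in Null and 7.92 FPKM in WT). No leukocyte marker in the table was listed at 0 in either column. In bulk tissue, fewer cells of a type and less RNA per cell cannot be told apart, and the part of these cells in the GTPase values was not tested.

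**Figure D3:**
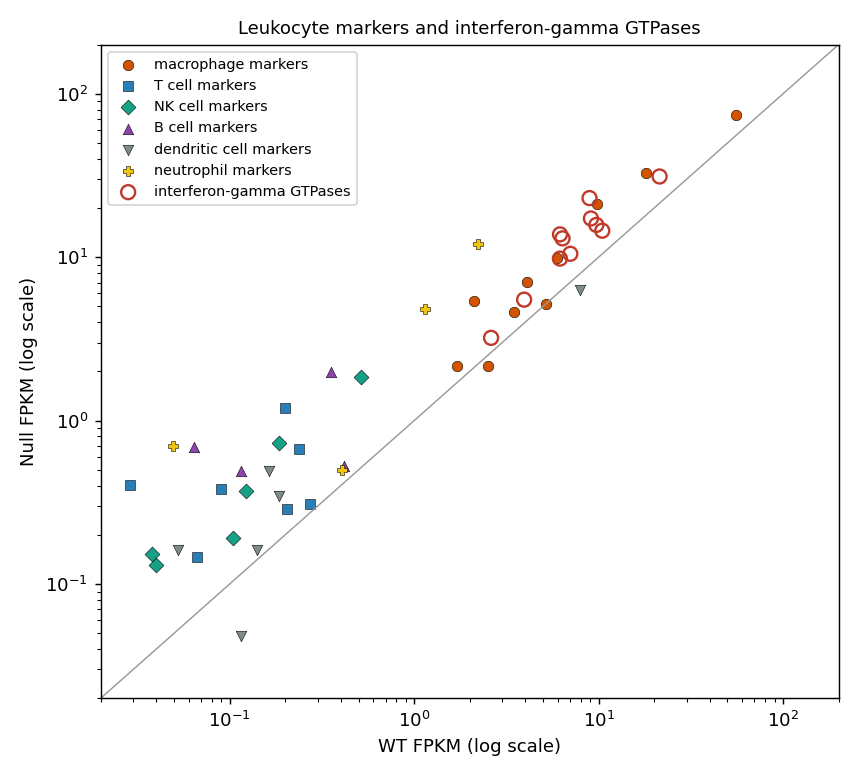
FPKM in Null (vertical axis) against FPKM in WT (horizontal axis), both on log scales, for the leukocyte markers (filled symbols by cell type) and the 11 measured GTPases (open red circles), with the line of equal values. All the circles and 33 of 37 markers lie above the line, the T cell and NK cell markers mostly under 1 FPKM in both columns.

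Other cell types and mRNA classes differed between the columns as well. All 3 red cell markers were higher in Null by 1.5-fold or more, beside 7.87% of all genes. Their sums were 349 FPKM in Null and 113 FPKM in WT. Hbb-b1, a beta-globin gene, was at 66.3 FPKM in Null and 10.1 FPKM in WT, and Alas2, the heme synthesis enzyme of red cell precursors, at 13.1 FPKM in Null and 6.12 FPKM in WT. Globin genes have close copies, so their values are uncertain, and the part of blood in the GTPase values was not tested. The 5 endothelial markers summed to 238 FPKM in Null and 190.0 FPKM in WT, a difference that lay mostly in Cldn5, at 76.1 FPKM in Null and 27.9 FPKM in WT. The other endothelial genes differed by less than 1.5-fold, Pecam1 at 48.2 FPKM in Null and 46.8 FPKM in WT and Kdr at 35.6 FPKM in Null and 40.3 FPKM in WT. The 6 muscle markers were all lower in Null, with sums of 729 FPKM in Null and 1298 FPKM in WT. Of the 6, 5 were lower by 1.5-fold or more, beside 6.75% of all genes. All 6 brown adipocyte markers passed the mean of 1 FPKM, with sums of 41802 FPKM in Null and 34111 FPKM in WT. Of the 6, 3 were higher in Null, beside 50.6% of all genes, and 1 was higher by 1.5-fold or more, beside 7.87%. That gene was Adipoq, at 1899 FPKM in Null and 1163 FPKM in WT (0.71). Fabp4, the most abundant of the 6, was at 34679.4 FPKM in Null and 27294.5 FPKM in WT (0.35). Ucp1, the uncoupling protein that defines the labelled tissue, was at 2487 FPKM in Null and 3016 FPKM in WT, and Cidea, a lipid droplet protein, at 2717 FPKM in Null and 2615 FPKM in WT. The brown fat regulator Prdm16 was far lower, at 6.58 FPKM in Null and 6.91 FPKM in WT. Ribosomal protein genes, whose mRNAs are short, had a median log2 ratio of 0.88 over 63 genes, so the columns also differed for a large class unrelated to interferon. Bst2, Isg15 and Isg20, with ratios of 0.90, 0.69 and 0.57, encode small proteins too. So do Ifitm3 and Ifitm2, with ratios of 0.45 and -0.10. Transcript lengths were not used here, and the part of mRNA length in the values was not tested.

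Upstream of the effectors, the interferon genes themselves had values at or near 0. Of 11 ligand genes, 10, including Ifnb1 and 5 Ifna genes, were listed at 0 in both columns. Ifng, which encodes interferon gamma, was at 0.239 FPKM in Null and 0.0400 FPKM in WT, both far under the mean of 1 FPKM used for ratios. Ifna genes are close copies of one another, and a 0 in this table is not a measure of absence. Gapdh, a glycolytic enzyme gene that every cell uses, was itself at 0.463 FPKM in Null and 3.38 FPKM in WT.

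Receptors and their kinases were measured for 8 of 9 genes, with a median log2 ratio of 0.18 and 0 past 1.5-fold in either direction, beside 7.87% of all genes higher and 6.75% lower. Ifngr1, which binds interferon gamma, was at 69.5 FPKM in Null and 52.8 FPKM in WT (0.39), and its partner Ifngr2 at 15.2 FPKM in Null and 11.2 FPKM in WT (0.40). Ifnar2, a chain of the type I receptor, was at 134 FPKM in Null and 113 FPKM in WT (0.24), and Il10rb, shared with the type III receptor, at 43.4 FPKM in Null and 30.5 FPKM in WT (0.50). Jak1, the kinase shared by all of these receptors, was at 22.9 FPKM in Null and 25.9 FPKM in WT (-0.17). Both chains of the gamma receptor were therefore present at levels above those of most GTPases.

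Adaptors that link nucleic acid sensing to interferon production had a median log2 ratio of 0.05 over 10 of 13 genes, with 0 higher and 2 lower by 1.5-fold or more, beside 7.87% and 6.75% of all genes. The lower ones were Mavs, the mitochondrial adaptor of the RNA sensors, at 33.1 FPKM in Null and 53.3 FPKM in WT (-0.67), and Traf3, at 2.80 FPKM in Null and 4.73 FPKM in WT (-0.59). Myd88, the Toll-like receptor adaptor, was at 16.2 FPKM in Null and 11.96 FPKM in WT (0.41), and Tlr3, which senses double-stranded RNA, at 4.70 FPKM in Null and 3.33 FPKM in WT (0.40). Unc93b1 and Tbk1, at 13.3 and 12.9 FPKM in Null and at 12.9 and 12.4 FPKM in WT, had ratios of 0.04 and 0.05.

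Genes listed as restraints of the pathway had a median of 0.13 over 9 of 10 genes, with 0 higher and 1 lower by 1.5-fold or more, beside the same shares of all genes. The lower gene was Ptpn11, a phosphatase that dampens cytokine signals but also carries growth factor signals, at 29.3 FPKM in Null and 51.7 FPKM in WT (-0.80). Ptpn6, a phosphatase of blood cells, was at 2.99 FPKM in Null and 1.80 FPKM in WT (0.51). Pias3 was at 7.04 FPKM in Null and 5.45 FPKM in WT (0.32), and Ptpn2, which acts on the Jak kinases, at 17.1 FPKM in Null and 15.4 FPKM in WT (0.14).

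Other interferon-stimulated genes, 54 measured of 65 in the table, had a median log2 ratio of 0.15. By 1.5-fold or more, 11 were higher, a share of 20.4%, and 0 were lower, beside 7.87% and 6.75% of all genes. This list was also chosen with earlier results of these data known. Psmb8 and Psmb9, the immunoproteasome subunits that interferon gamma induces, led the list at 36.6 and 38.6 FPKM in Null and at 16.6 and 18.8 FPKM in WT (1.09 and 1.00). B2m, the light chain of class I molecules, was at 1542 FPKM in Null and 917 FPKM in WT (0.75). Ifi27l2a, a small mitochondrial protein gene, was at 1078 FPKM in Null and 643 FPKM in WT (0.75). Ly6c1, a surface protein of endothelial cells and monocytes, was at 131 FPKM in Null and 78.8 FPKM in WT (0.73). The lowest ratios were those of Znfx1, an RNA helicase, at 7.77 FPKM in Null and 11.2 FPKM in WT (-0.47), and Lgals3bp, a secreted glycoprotein, at 32.0 FPKM in Null and 42.2 FPKM in WT (-0.39).

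**Figure D4:**
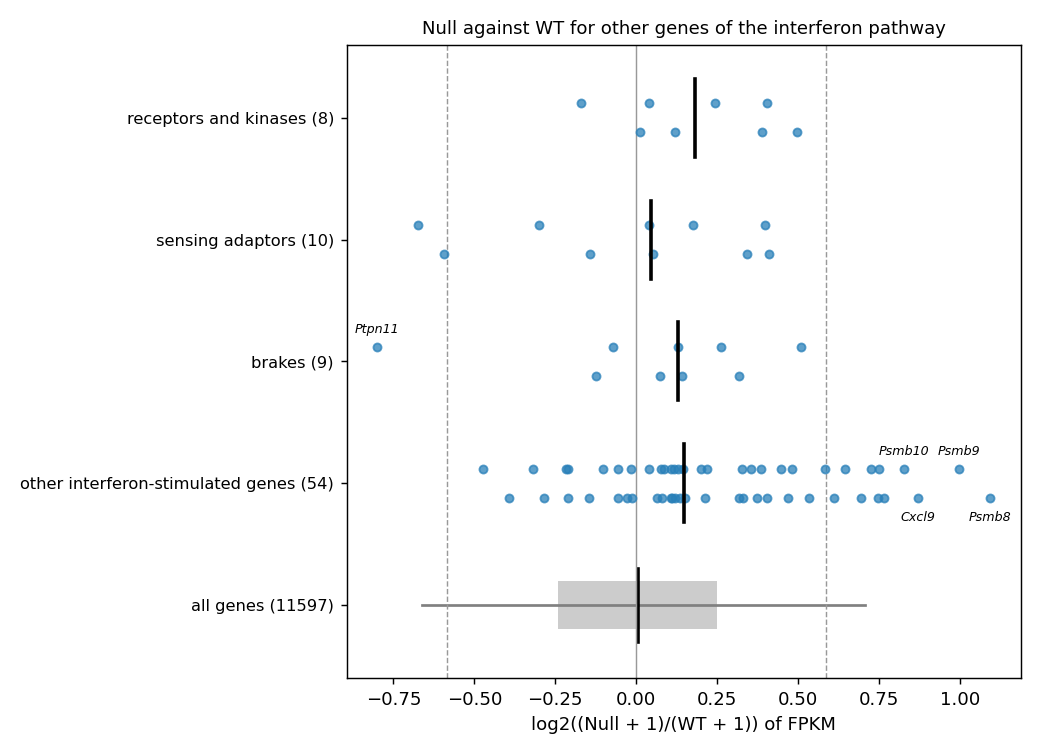
Log2 ratio of Null to WT for measured genes of 4 further lists of the interferon pathway (points; brakes are the restraints), with a black bar at each median and all 11597 genes in the lowest row, drawn as a line from the 5th to the 95th percentile and a box over the middle 50%. The points past 1.5-fold to the right are all in the list of other interferon-stimulated genes, led by Psmb8 (1.09) and Psmb9 (1.00), whereas Ptpn11 (-0.80) lies furthest to the left.

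The order of the roles was the same with columns scaled to the same total and with quantile normalization. The Null column summed to 590327 FPKM and the WT column to 508701 FPKM, and scaling both to the same total moved the median of all genes to -0.18. Relative to that median the GTPases were at 0.58, the type I effectors at 0.28, the transcription factors at 0.23 and the sensors at -0.14, and all 11 GTPases were still above it. Under that scaling the ratios of Rsad2, Oasl2, Usp18 and Ifih1 changed sign, as did that of Ifit3 with quantile normalization, none of them past 1.5-fold in either case. Quantile normalization put the GTPases at 0.64 and the type I effectors at 0.27 relative to all genes, with the transcription factors nearly level with the latter. With a pseudocount of 5 FPKM the transcription factors (0.14) lay above the type I effectors (0.13). The same held with no filter on low values (0.24 and 0.06).

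**Figure D5:**
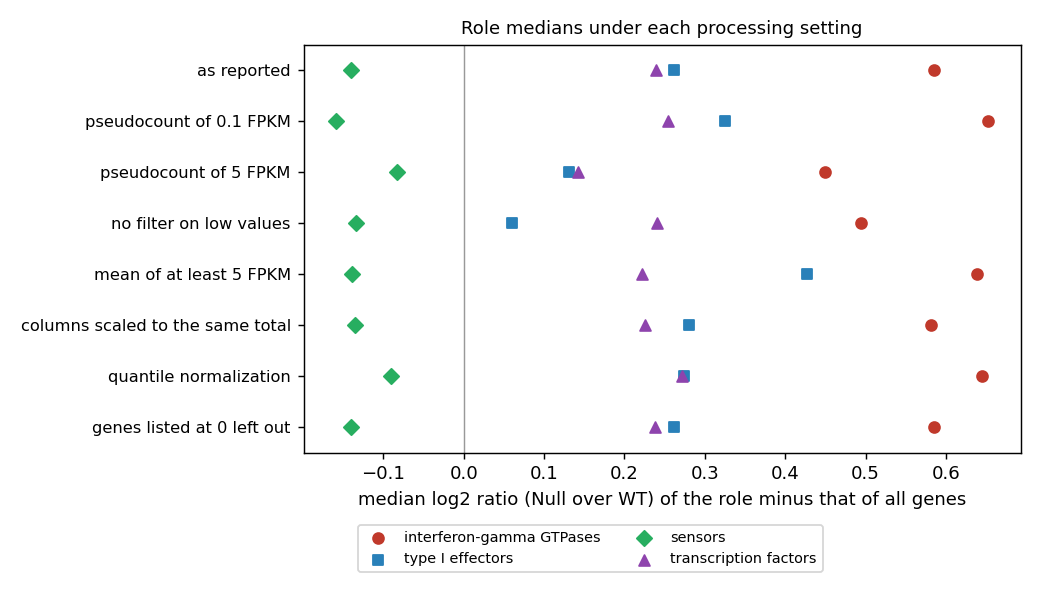
Median log2 ratio of Null to WT in each role minus the median of all genes (horizontal axis) under 8 processing settings, 1 per row. The GTPases (circles) stay between 0.45 and 0.65, the sensors (diamonds) stay below 0, and the type I effectors (squares) run from 0.06 with no filter on low values to 0.43 with a mean of at least 5 FPKM.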

How the data were processed

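Poly(A) RNA of brown adipose tissue was sequenced from 3 Null and 3 WT samples, and small RNA from 1 of each, grouped by title. The authors deposited FPKM in 1 column per genotype per the file headers, and how samples were combined is not given in the sources used here. Per the submitters' processing notes CASAVA, TopHat, BWA, edgeR and DESeq and build mm9 were used, with no role, version or annotation given. Depth is unknown: among 1665 genes under 0.15 FPKM in both columns a few ratios recur (1.67 in 39 genes), but whole reads could not be recovered. The microRNA values are a signal headed RPM that the authors deposited; the columns sum to 1578515 in Null and 1559381 in WT, so they exceed the total that this name implies. The authors' deposited table also lists a p-value and a fold ratio of Null to WT per microRNA, both unused here.

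No test was possible on 1 column per genotype. Values were compared as log2((Null + 1)/(WT + 1)) of FPKM for genes whose mean over both columns reached 1 FPKM, counted at 1.5-fold and 2-fold. Medians and counts stand beside those of all genes. Every measured member may be named; of other lists, the most abundant genes and those with the most extreme ratios. Members and lists were chosen with earlier results of these data known. Calculations used Python 3.11.15, pandas 2.3.3 and numpy 2.4.6 and were tested on simulated data. Alternatives were other pseudocounts, filters and scalings. All 62 genes matched RefSeq GRCm38.p6, 61 by symbol and 1 by an older symbol. Its coordinates differ from the build of the authors and are used for sequences and chromosomes only. Counts and medians cover all members, but not every member is reported here on its own.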

Additional observations from a re-analysis of the deposited data

How the results depend on the processing

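Directions of the role medians were the same under all 7 alternatives run, and all measured GTPases stayed higher in Null in each (at least 0.06 with columns scaled to the same total). With a pseudocount of 0.1 FPKM, quantile normalization or genes listed at 0 left out, no median moved by 0.1 and no count by over 1.5 times. With a pseudocount of 5 FPKM, 5 members were higher and 0 lower by 1.5-fold and 1 was higher by 2-fold, with medians of 0.18 over all members, 0.45 for GTPases and 0.13 for type I effectors. With columns scaled to the same total, 5 members were higher by 1.5-fold and 1 by 2-fold, with 4.04% of all genes higher and 14% lower by 1.5-fold; relative to the shifted median of all genes, 7 members were higher by 1.5-fold. The medians under this scaling were 0.16 over all members, 0.40 for GTPases, 0.10 for type I effectors, -0.32 for sensors and 0.045 for transcription factors. With no filter on low values, medians were 0.21 over all members and 0.060 for type I effectors, and the GTPase median was 0.44 above that of type I effectors. With a mean of at least 5 FPKM they were 0.44 and 0.43, with a difference of 0.21. The type I effectors left out by that filter had ratios from -0.06 (Oas2) to 0.46 (Oas1b). The GTPases left out were Gbp5 (0.39) and Gbp6 (0.22). An adjustment for mRNA length was not run, because no transcript lengths were used here. No paired analysis was possible because the columns carry no replicate numbers, and no replicate could be left out. A move under 0.1 (log2) was counted as no move, since no replicate spread exists. Unknown depth limits low genes such as Mx1, Oas1a and Ifng.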
